A study of Mus musculus with 16 samples.

Results

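The genes described here are the poly(ADP-ribose) polymerases Parp1, Parp2, Parp3, Parp4, Parp9 and Parp14, the tankyrases Tnks and Tnks2, the poly(ADP-ribose) glycohydrolase Parg and the NAD hydrolase Sarm1. They were chosen by name as 10 NAD-consuming or ADP-ribose-handling genes. Of these, 8 had a row among the 18111 gene symbols of the deposited table: 7 under the listed symbol, and Parp9 under BC003281, a synonym that the RefSeq gene table gives to Parp9 alone. Parp4 and Tnks2 were not analysed here. RNA was measured on 16 Illumina bead arrays, with 4 arrays in each of 4 groups of wild type B6 mouse cells: primary pancreatic islets with 10 nM FK866, primary islets with 0.1% DMSO as control, primary hepatocytes with 200 nM FK866, and primary hepatocytes with 0.1% DMSO as control. All cells were cultured with the agent or vehicle for 48 hours. FK866 blocks NAMPT, the enzyme that recycles nicotinamide into NAD, and the study asked what loss of NAD does to gene expression in these cells. The labels give no age, sex or number of animals, and do not state if the 4 arrays of a group are separate animals or cultures. The p-values therefore reflect the scatter among these arrays, and that scatter may be technical.

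Poly(ADP-ribose) polymerases split NAD and attach its ADP-ribose part to proteins. PARP1, PARP2 and PARP3 are switched on by broken DNA and recruit repair factors, PARG trims the chains away again, and strong PARP1 activity can drain a cell of NAD, which in beta cells is a classical route of injury by streptozotocin. PARP9 and PARP14 belong to the macrodomain group tied to interferon signalling, tankyrases mark AXIN for destruction in the Wnt pathway and act at telomeres, and SARM1 is the NAD hydrolase that drives degeneration of cut axons.

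Control islets and control hepatocytes carried the markers of their tissue. Of the 13 tested beta cell markers, 12 were called higher in islets, with Ins2 detected on 4 of 4 control islet arrays and on 0 of 4 control hepatocyte arrays, and 12 of 13 tested hepatocyte markers were called lower in islets. The exception was Ttr, which alpha cells also express. Median scanner signals were 26.9 to 33.1 on 6 islet arrays, but 18.0 and 15.4 on the islet arrays numbered 2 of the FK866 and the control group. They were 27.1 to 30.1 on the 8 hepatocyte arrays. The islet arrays numbered 2 also stood apart over all genes, with a median correlation to the other arrays of their tissue of 0.92 and 0.84, against 0.97 to 0.99 for the other islet arrays. Values below were quantile normalized on the log2 scale after background correction, and the values of the family genes that could be tested are also given without the islet arrays numbered 2. A gene counts as detected on an array when its deposited detection p was under 0.05.

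The DNA-damage-dependent PARPs did not share a direction between the tissues: Parp2 was higher in islets, Parp3 was detected in hepatocytes and on no islet array, and the Parp1 difference did not pass the test. Parp14 was lower in islets. Sarm1 was called higher there, but between values close to background. Parp3 and Tnks were detected only on hepatocyte arrays and Sarm1 only on islet arrays, so each could be tested only through its brighter tissue. Of the 6 family genes that could be tested, 4 were called at an adjusted p under 0.05 in limma, adjusted over all tested genes, 2 higher and 2 lower in islets. Among all 10065 genes tested in this comparison 66% were called, 35% higher and 31% lower, so a call was the usual outcome for any gene here. In such bulk samples, fewer cells of a type and less RNA per cell cannot be told apart.

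**Figure D1:**
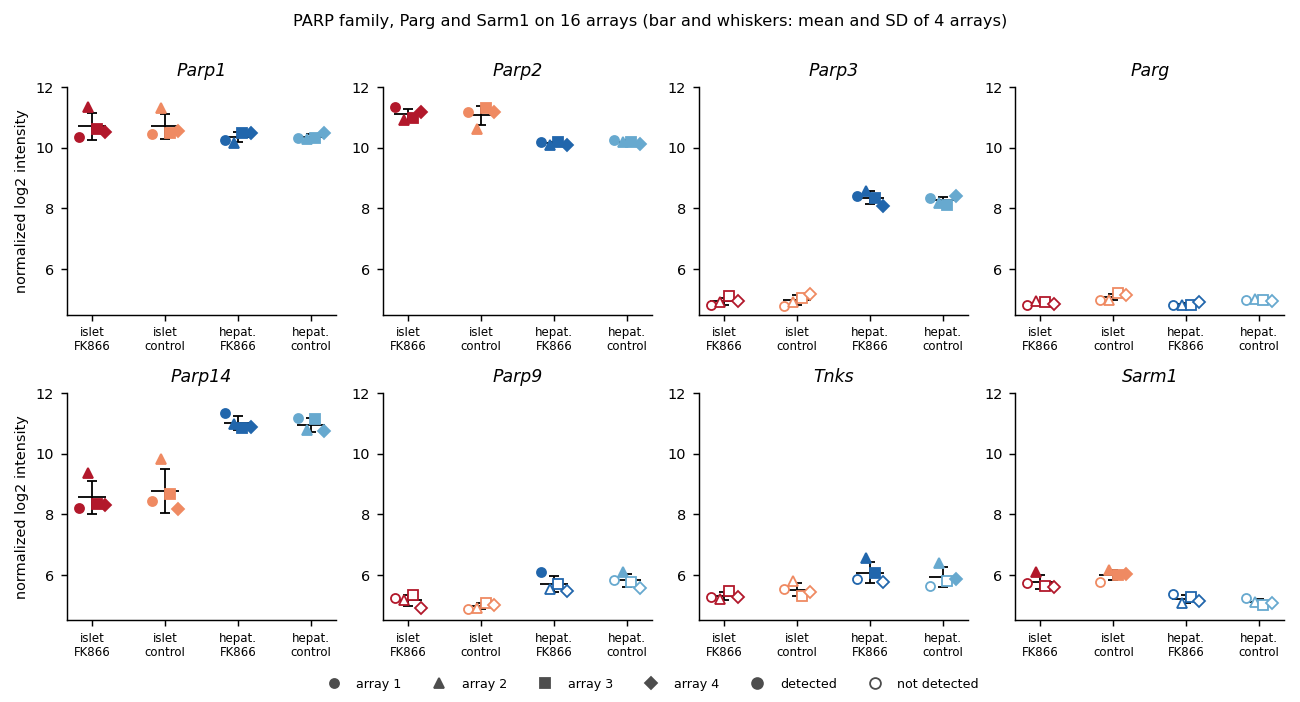
Normalized log2 intensity of the 8 measured genes on each of 16 arrays, by group, with the 4 arrays of a group shown by symbol, filled where the probe was detected, and with the mean and SD of each group. Parp3 lies at 5.18 or below on the islet arrays and between 8.09 and 8.58 on the hepatocyte arrays, and Parp1 and Parp14 are highest among islets on the arrays numbered 2.

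Parp1 encodes the main nuclear poly(ADP-ribose) polymerase. Its log2 intensity was 10.46, 11.33, 10.48 and 10.56 on the control islet arrays, against 10.33, 10.31, 10.33 and 10.50 on the control hepatocyte arrays. The groups overlapped, and islet array 2 lay far above the other islet arrays. The difference of 0.34 (SE 0.22, 95% interval -0.12 to 0.81, limma adjusted p = 0.180) did not pass the test, and it was 0.13 without islet control array 2. A second detected Parp1 probe gave 0.35, and the last of its 3 probes, detected on 1 of the 8 control arrays, gave 0.03.

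Parp2, a second enzyme recruited to DNA breaks that shares substrates and partners with PARP1, gave 11.17, 10.61, 11.30 and 11.20 in control islets, against 10.27, 10.21, 10.20 and 10.12 in control hepatocytes. Every islet array lay above every hepatocyte array, as for 31.7% of all tested genes. The difference was 0.87 (SE 0.15, 1.83-fold, limma adjusted p = 9.05e-05). The second Parp2 probe, read on the same arrays, gave 0.84. Here islet array 2 was the lowest islet array, and without it the difference was 1.02.

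Parp3, which acts with end-joining factors at DNA double-strand breaks, showed the largest tissue difference of the family genes tested. On the log2 scale it gave 4.79, 4.91, 5.05 and 5.18 in control islets, with 0 of 4 detected. In control hepatocytes it gave 8.35, 8.19, 8.13 and 8.40, with 4 of 4 detected. With the islet values only a bound, Parp3 was at least 5.30-fold higher in hepatocytes (limma adjusted p = 4.31e-12 for a measured difference of -3.29, and -3.32 without both islet arrays numbered 2). Among the FK866 arrays, Parp3 was detected on 0 of 4 islet arrays and on 4 of 4 hepatocyte arrays. It thus passed the detection filter only through the tissue where it was higher, which limits the weight of its p-value. The measured difference is taken against background values in islets.

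The promoters of these 3 DNA-damage-dependent members are shown because they differ in tissue pattern. Each is the RefSeq window of 250 bases before to 50 bases after the gene's start in build GRCm38.p6, read 5′ to 3′ on the strand of the gene, with capitals marking the E-box CACGTG, a motif bound by MYC and clock factors.
Parp1, chr1:180568641-180568940, plus strand: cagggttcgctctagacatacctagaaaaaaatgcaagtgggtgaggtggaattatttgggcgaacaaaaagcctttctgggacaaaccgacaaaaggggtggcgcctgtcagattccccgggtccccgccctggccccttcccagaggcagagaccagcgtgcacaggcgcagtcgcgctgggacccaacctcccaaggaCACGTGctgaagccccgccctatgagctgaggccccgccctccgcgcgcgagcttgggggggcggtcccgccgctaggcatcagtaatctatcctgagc
Parp2, chr14:50807666-50807965, plus strand: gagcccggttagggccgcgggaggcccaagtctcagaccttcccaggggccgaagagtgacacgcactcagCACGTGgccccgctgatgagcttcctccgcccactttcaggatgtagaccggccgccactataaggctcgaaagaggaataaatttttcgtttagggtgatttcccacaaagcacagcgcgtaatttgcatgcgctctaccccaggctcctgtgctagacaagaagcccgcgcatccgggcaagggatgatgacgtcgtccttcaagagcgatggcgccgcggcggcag
Parp3, chr9:106476900-106477199, minus strand: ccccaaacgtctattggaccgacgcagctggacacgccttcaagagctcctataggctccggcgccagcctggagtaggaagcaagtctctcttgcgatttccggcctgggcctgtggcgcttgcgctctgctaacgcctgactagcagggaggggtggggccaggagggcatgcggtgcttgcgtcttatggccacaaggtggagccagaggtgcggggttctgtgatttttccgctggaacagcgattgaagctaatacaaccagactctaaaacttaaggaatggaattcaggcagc
The E-box reads the same on both strands and occurs 1 time each in the Parp1 and Parp2 windows and 0 times in the Parp3 window, and 7.15% of the 32851 windows in the table hold it. The windows hold 20, 25 and 16 CG dinucleotides, against a median of 7 over all windows. Of the 10 genes, 7 matched an entry, and Parp9, Parp14 and Tnks did not. The windows of Parp4, Tnks2, Parg and Sarm1, not shown, hold the E-box 0 times. These matches describe letters only and were related to no measurement here.

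Parg encodes the glycohydrolase that removes most poly(ADP-ribose). Its probe was detected on 0 of 16 arrays, with log2 intensities of 4.83 to 5.20 in islets and 4.80 to 5.03 in hepatocytes, so no difference between tissues was tested.

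Parp14, a macrodomain mono-ADP-ribosyltransferase linked to interleukin-4 and interferon signalling, gave 8.44, 9.82, 8.68 and 8.18 in control islets, against 11.19, 10.78, 11.14 and 10.75 in control hepatocytes. The groups did not overlap, as for 28.1% of all tested genes in this direction. The difference was -2.18 (SE 0.31, 4.54-fold higher in hepatocytes, limma adjusted p = 1.62e-05). Islet array 2 was the nearest to the hepatocytes, and without it the difference was -2.52.

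Parp9, the catalytically weak partner of the ubiquitin ligase DTX3L, lies beside Dtx3l and near Parp14 on chromosome 16, and Dtx3l was not analysed here. The BC003281 probe was detected on 0 of 8 islet arrays and on 1 array in each hepatocyte group. It gave 4.88, 4.91, 5.08 and 5.02 in control islets, against 5.83, 6.12, 5.78 and 5.57 in control hepatocytes. The groups did not overlap, as for 28.1% of the genes that passed the detection filter, in this direction. The Parp9 probe did not pass that filter and no fold is given. Tested without that filter, the measured difference was -0.85 (SE 0.14, limma adjusted p = 1.56e-04), between values at or near background. A call was usual here, at 66% of the genes that passed the filter, and the share without the filter is not given.

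Tnks encodes tankyrase 1. It gave 5.54, 5.79, 5.32 and 5.43 in control islets, with 0 of 4 detected, against 5.64, 6.39, 5.82 and 5.87 in control hepatocytes, with 2 of 4 detected. The groups overlapped, and the difference of -0.41 (SE 0.19, limma adjusted p = 0.0687) did not pass the test. The call depended on single arrays and on scaling: limma's adjusted p was 0.0412 without hepatocyte control array 1, 0.0291 without islet control array 2, 0.0285 with 75th percentile scaling and 0.0241 with signals floored at 16. Between the FK866 groups, Tnks was detected on 0 of 4 islet and 2 of 4 hepatocyte arrays. The bound was 1.18-fold higher in hepatocytes there and 1.05-fold between the control groups. Both bounds use hepatocyte means that include undetected arrays, so neither is a firm lower limit. The measured difference between the FK866 groups was called (limma adjusted p = 0.00253), between values near background. That was the lowest adjusted p over the alternatives for Tnks. Like Parp3, Tnks passed the detection filter only through hepatocytes, which limits the weight of its p-values.

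Sarm1, whose product consumes NAD when NMN accumulates relative to NAD, gave 5.78, 6.16, 6.01 and 6.03 in control islets, with 3 of 4 detected. In control hepatocytes it gave 5.25, 5.10, 5.03 and 5.09, with 0 of 4 detected. Every islet array lay above every hepatocyte array, as for 31.7% of all genes. The measured difference was 0.88 (SE 0.14, limma adjusted p = 3.74e-05), but all values lay close to background. The bound was 1.03-fold higher in islets. It uses an islet mean that includes an undetected array, so it is not a firm lower limit. Sarm1 was detected on 4 of 16 arrays in all, each of them an islet array. It thus passed the detection filter only through the tissue where it was higher, which limits the weight of its p-value. It could not be tested when an islet array that detected it was left out, the arrays numbered 2 included.

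**Figure D2:**
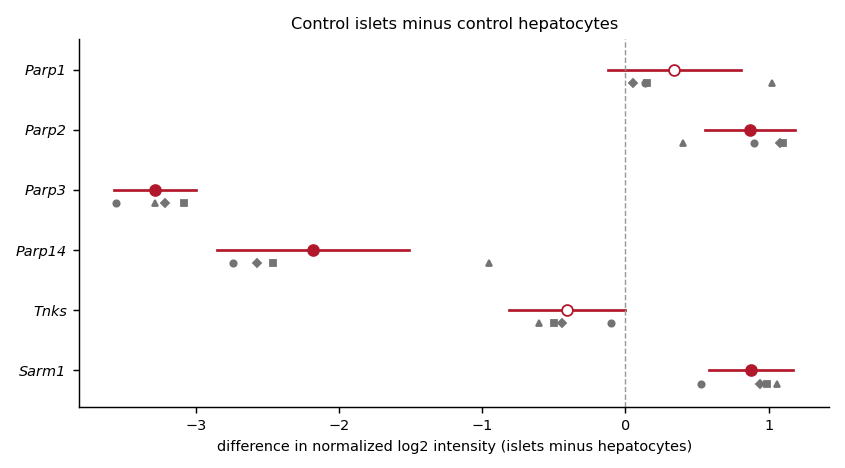
Difference in normalized log2 intensity between control islets and control hepatocytes for the 6 tested genes, with limma's 95% interval (filled circle, adjusted p under 0.05), and below it in grey the differences between arrays of the same number (circle 1, triangle 2, square 3, diamond 4). Parp3 and Parp14 lie below 0, and Parp2 and Sarm1 above it.

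The FK866 arrays give the same tissue comparison on other arrays, but not an independent one. Same-numbered FK866 and control arrays deviated together, with correlations of 0.53 to 0.93 in islets and 0.38 to 0.61 in hepatocytes. The fit also shared its spread, normalization and detection filter with the control arrays. Between FK866 islets and FK866 hepatocytes, 63% of all genes were called, and the difference was 0.96 for Parp2 and -2.44 for Parp14, both called. Without both islet arrays numbered 2 these differences were 1.02 and -2.71. Parp3, with its islet values a bound, was at least 5.75-fold higher in FK866 hepatocytes. Sarm1 was detected on 1 of 4 FK866 islet arrays and 0 of 4 FK866 hepatocyte arrays. Its bound there was 0.87-fold, so it did not place islets above hepatocytes. For Parp1 the difference was 0.36 and did not pass the test (limma adjusted p = 0.168), and it was 0.15 without both arrays numbered 2.

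Markers of other cells differed between the preparations as well. Of the 8 tested macrophage markers, 6 were called higher and 2, Cd68 and Cd14, lower in islets, where 7 to 8 of 12 were detected, against 2 to 5 of 12 in hepatocytes. Their summed signal was 1432 to 5763 in control islets and 3012 to 4807 in control hepatocytes. The low end of 1432 came from the dim islet control array 2. On the 6 islet arrays not numbered 2, of both groups, the sum was 4371 to 5763. Of the 6 tested duct markers, 1 was called higher in islets, Krt7 (difference 7.06), and 4 were called lower, of which Krt19 and Sox9 were detected on 0 of 4 control islet arrays and on 4 of 4 control hepatocyte arrays. The summed signal of the 6 measured duct markers was 3423 to 12705 in control islets and 27335 to 33179 in control hepatocytes. Here too the low end came from islet control array 2, and the 6 islet arrays not numbered 2 gave 7785 to 12705. T and B lymphocyte markers were too rarely detected for any to be tested. The part of these cells in the tissue differences of the family was not tested.

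Reading the authors' deposited table row by row would change the account of these genes. In the stretch of 5015 symbols from Pmpcb to Il22ra2, the islet values stand 1 row above their symbol, and Parp1, Parp2, Parp3, Parp14 and Parg lie in it. The authors' deposited table gives a score, which by its values is the log10 signal centred and scaled within each array. As deposited, the Parp3 row reads 1.39, 1.29, 1.40 and 1.38 in control islets, above its mean of 0.85 in control hepatocytes. Moved to their own symbol, the Parp3 islet scores are -1.21, -1.17, -1.20 and -0.40. The values deposited in the Parp3 row are those of Parp2. On the deposited scores, the islet minus hepatocyte difference of Parp2 is 0.21 with the values moved and -0.33 with them in place, that of Parp3 is -1.85 moved and 0.51 in place, and that of Parp1 is 0.02 moved and 0.92 in place. The Parg row reads a mean of 1.17 in control islets as deposited and -0.82 after the move, against -1.16 in control hepatocytes.

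**Figure D3:**
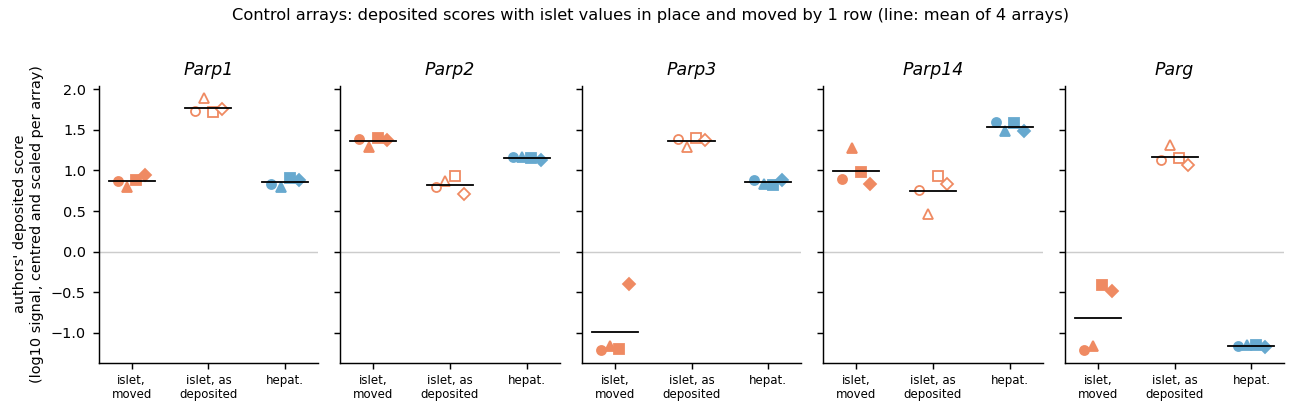
Authors' deposited scores of 5 family genes on the control arrays: islet values moved to their own symbol (filled), islet values as they stand in the row (open), and hepatocyte values, with a line at the mean of 4 arrays. Parp2 and Parp3 change sides relative to hepatocytes, and Parg reads 1.17 in place and -0.82 moved.

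Other genes around ADP-ribosylation were set beside the family from lists of named genes, as counts of called genes among those tested. These are to be read against 35% of all genes called higher, 31% called lower and a median difference of 0.08, and whether a list differs from other genes was not tested. Without both islet arrays numbered 2, 41.1% of all genes were called higher and 36% lower, and the called genes were 6 higher and 3 lower of 11 hydrolases and readers and 5 higher of 14 genes of NAD synthesis and use. In the other lists the counts moved by at most 1 gene. Values in parentheses are differences in log2 intensity, islets minus hepatocytes, with their SE, of genes with a limma adjusted p under 0.05. Of 5 other ADP-ribosyltransferases tested, 3 were higher and 1 lower in islets, with a median difference of 0.91. Parp8, detected on 0 of 4 control hepatocyte arrays, was at least 5.17-fold higher in islets. Parp6 was higher (2.87, SE 0.36), so was the endoplasmic reticulum enzyme Parp16 (0.91, SE 0.19), and Parp12, an interferon-induced member, was lower (-1.43, SE 0.22).

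ADP-ribose hydrolases and readers were divided, with 4 of 11 higher and 2 lower and a median of 0.16. The phosphodiesterase Enpp1 was lower in islets (-2.27, SE 0.22), where it was detected on 2 of 4 control arrays, and so was the ADP-ribose pyrophosphatase Nudt5 (-0.90, SE 0.25). The ADP-ribose-gated calcium channel Trpm2, detected on 0 of 4 control hepatocyte arrays, was at least 1.87-fold higher in islets, and the mono-ADP-ribose hydrolase Macrod1 was higher (0.96, SE 0.13).

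Repair partners of PARP1 went both ways. Of 22 tested genes of base excision and nick repair, 10 were lower and 5 higher, with a median of -0.56, and of -0.26 without both islet arrays numbered 2. Xrcc1, the scaffold that PARP1 recruits, was higher (1.19, SE 0.23), and the glycosylase Neil2 was at least 3.96-fold higher in islets. The abasic endonuclease Apex1 was lower (-2.43, SE 0.42), the flap nuclease Fen1 (-1.90, SE 0.17) and the sliding clamp Pcna (-1.90, SE 0.28), with Apex1 and Pcna detected on 3 of 4 control islet arrays. Among 15 genes of the response to DNA ends, 7 were lower and 4 higher, with a median of -0.37. The checkpoint kinase Chek2, detected on 3 of 4 control islet arrays, was lower (-1.49, SE 0.21) and so was Rad50 (-1.20, SE 0.18), while the Ku70 gene Xrcc6 was higher (1.22, SE 0.18).

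Tankyrase partners and the Wnt destruction complex showed 4 of 10 higher and 3 lower, with a median of 0.46, and of 0.16 without both islet arrays numbered 2. Axin2, both a tankyrase substrate and a Wnt target gene, was at least 3.10-fold higher in islets. Amotl2 was at least 3.51-fold higher in hepatocytes, Sh3bp2 was lower in islets (-2.34, SE 0.38) and the telomere protein Terf2 higher (1.34, SE 0.38). Rnf146, the ligase that reads tankyrase marks, was not analysed here.

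The interferon list, the setting of Parp9 and Parp14, was lower in islets for 23 of 29 tested genes and higher for 3, with a median of -1.40. Oasl1 was at least 26.1-fold higher in hepatocytes. Bst2, detected on 3 of 4 control islet arrays, was lower there (-5.39, SE 0.32), and so was the GTPase Gbp2 (-3.03, SE 0.19). The transcription factor Irf7 was called lower too, but it was detected on only 1 of 4 control islet arrays, against 4 of 4 control hepatocyte arrays, so the size of its difference rests mostly on background values. The 3 that were higher in islets were Irf1 (0.76, SE 0.16), Lgals3bp and Psmb9.

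Of 8 genes of PARP1-dependent and necroptotic cell death, 7 were lower and 1 higher in islets, with a median of -1.04. Aifm1, the flavoprotein released in parthanatos, was lower (-2.66, SE 0.17), the mitochondrial cyclophilin gene Ppif (-1.04, SE 0.25) and the necroptosis effector Mlkl (-3.87, SE 0.18). Ripk3 was called lower, with 1 of 4 control islet arrays detected, against 4 of 4 control hepatocyte arrays.

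Genes for NAD synthesis and other NAD consumers showed 3 of 14 higher and 4 lower, with a median of 0.14. Nnmt, which methylates nicotinamide, was at least 170-fold higher in hepatocytes and Qprt, of the synthesis route from tryptophan, at least 13.6-fold. Naprt1 was lower in islets (-1.68, SE 0.38) and the NAD kinase Nadk (-1.42, SE 0.15). Nampt, the target of FK866, gave a difference of -0.30 (SE 0.15, limma adjusted p = 0.0944). Among 10 partners of SARM1 in axon loss and innate signalling, 4 were higher and 3 lower, with a median of 0.34, and of 0.17 without both islet arrays numbered 2. The kinase Map3k12 was at least 13.3-fold higher in islets, Mapk8 was higher (1.54, SE 0.14) and Mapk9 (1.26, SE 0.14), and Tlr4 was at least 2.32-fold higher in hepatocytes. Nmnat2, whose loss activates SARM1 in axons, was detected on 1 of 4 arrays in each tissue and gave 0.02 (SE 0.18).

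**Figure D4:**
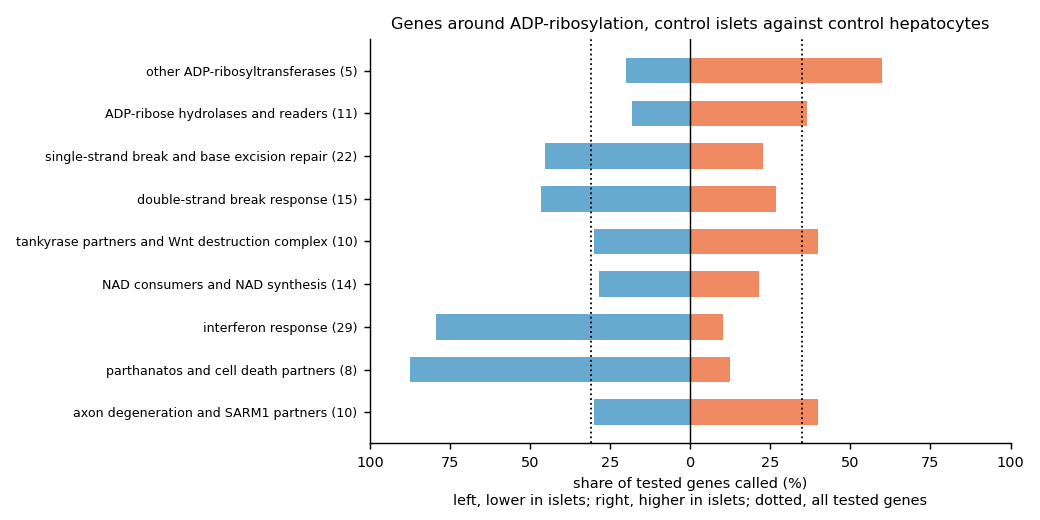
Share of tested genes called lower (left) or higher (right) in control islets than in control hepatocytes, for 9 lists of genes around ADP-ribosylation, with the number tested in parentheses and dotted lines at the shares over all genes. The interferon list and the cell death list reach furthest to the left.

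FK866 left no family gene past the test in either tissue. In islets, 0 of 4 tested family genes were called, against 0% of all 8917 genes, and 0 of the 4 had an unadjusted limma p under 0.05, against 1.36% of all genes. In hepatocytes, 0 of 5 tested family genes were called, against 0% of all 8560 genes, and 0 of the 5 had an unadjusted limma p under 0.05, against 1.69% of all genes. With the replicate number as a block, 1 gene was called in islets (0.0112%) and 0 in hepatocytes, none of them a family gene. The share of all genes with an unadjusted limma p under 0.05 was then 11.6% in islets and 6.23% in hepatocytes, with no tested family gene among them. These shares thus depend on the block. The FK866 and the tissue comparison share the control arrays.

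In islets, Parp1 gave 10.31, 11.25, 10.57 and 10.47 with FK866, against 10.42, 11.24, 10.43 and 10.51 in control islets, now normalized within the islet arrays. The arrays numbered 2 were the highest of both groups, and the difference was 0.00 (SE 0.28, 95% interval -0.63 to 0.63). Parp2 gave 11.25, 10.87, 10.93 and 11.11 with FK866, against 11.10, 10.56, 11.22 and 11.13 in controls, a difference of 0.04 (SE 0.20, 95% interval -0.42 to 0.49). Its second probe gave -0.25, so the probes of Parp2 disagreed in sign. Without both islet arrays numbered 2 the difference was -0.06 for Parp2 and again 0.00 for Parp1.

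Parp14 gave 8.20, 9.34, 8.33 and 8.29 with FK866, against 8.41, 9.78, 8.66 and 8.15 in control islets. The difference was -0.21 (SE 0.40, 95% interval -1.12 to 0.70), and arrays of the same number differed by -0.22, -0.44, -0.33 and 0.14. With the replicate number as a block its SE was 0.14 (unadjusted p = 0.169), and without both arrays numbered 2 the difference was -0.14. Sarm1 gave 5.67, 6.05, 5.57 and 5.55 with FK866, with 1 of 4 detected, against 5.72, 6.10, 5.95 and 5.97 in controls, with 3 of 4 detected. Sarm1 arrays of the same number differed by -0.05, -0.05, -0.38 and -0.42. The groups overlapped, and the difference of -0.23 (SE 0.18, 95% interval -0.64 to 0.19) did not pass the test. How often the pairs of a gene share a sign over all genes was not counted. Parp3, Parp9, Tnks and Parg were detected on no islet array and were not tested there.

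In hepatocytes the intervals were narrower. The FK866 intervals are from the fit without the replicate block. With the block, the SE in islets was 0.12 for Parp1, 0.14 for Parp2 and 0.13 for Sarm1. In hepatocytes it was then 0.07 for Parp1, 0.06 for Parp2, 0.12 for Parp3, 0.10 for Parp14 and 0.08 for Tnks. Parp1 gave 10.29, 10.22, 10.54 and 10.53 with FK866, against 10.37, 10.35, 10.37 and 10.55 in controls, normalized within the hepatocyte arrays. These groups overlapped, and the difference was -0.02 (SE 0.10, 95% interval -0.24 to 0.21). Parp2 gave 10.24, 10.15, 10.25 and 10.14 with FK866, against 10.32, 10.25, 10.24 and 10.17 in controls, a difference of -0.05 (SE 0.07, 95% interval -0.21 to 0.11). The groups overlapped here as well.

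Parp3 gave 8.44, 8.60, 8.38 and 8.12 with FK866, against 8.38, 8.21, 8.16 and 8.43 in control hepatocytes. The difference was 0.09 (SE 0.12, 95% interval -0.17 to 0.35). Parp14 gave 11.42, 11.04, 10.91 and 10.93 with FK866, against 11.25, 10.83, 11.20 and 10.80 in controls, a difference of 0.05 (SE 0.15, 95% interval -0.29 to 0.39). Tnks, detected on 2 arrays of each group, differed by 0.14 (SE 0.20, 95% interval -0.30 to 0.58). The groups overlapped for all 3. Parp9, Parg and Sarm1 were detected on too few hepatocyte arrays to test.

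**Figure D5:**
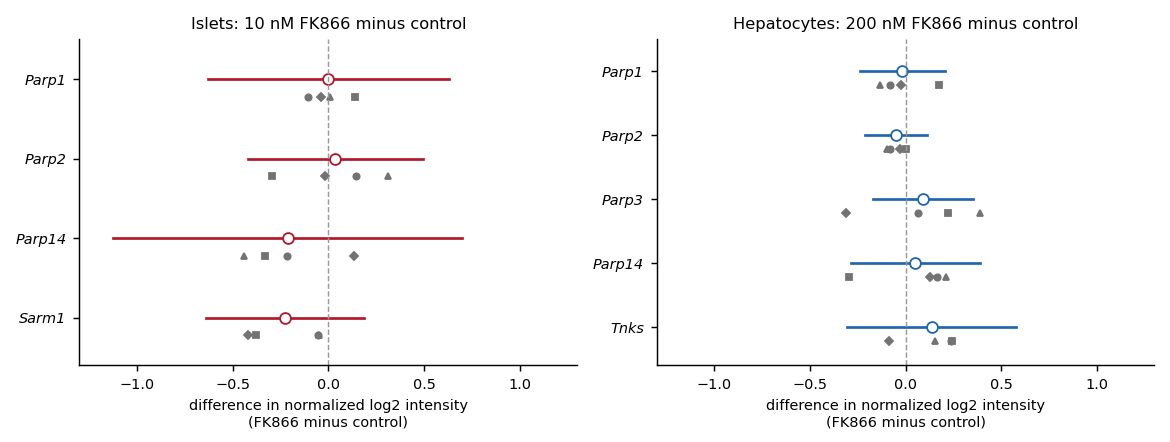
Difference in normalized log2 intensity between FK866 and control arrays for the tested family genes in islets (left) and hepatocytes (right), with limma's 95% interval, open circles where the adjusted p was 0.05 or above, and in grey the differences between arrays of the same number (circle 1, triangle 2, square 3, diamond 4). The intervals are from the fit without the replicate block. All intervals include 0, and those of islets are wider.

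The FK866 change in islets was set against that in hepatocytes by an interaction term over all 16 arrays. It bears on the 3 family genes tested in both tissues, Parp1, Parp2 and Parp14. Of these, 0 were called, against 0% of all 10065 genes. Over all genes 1.79% had an unadjusted limma p under 0.05, and 10.6% with the replicate block within tissue. The difference of changes was 0.02 for Parp1, 0.09 for Parp2 and -0.26 for Parp14, and without both islet arrays numbered 2 it was 0.01, -0.01 and -0.18. Parp3 and Tnks were detected on 0 of 8 islet arrays and Sarm1 on 0 of 8 hepatocyte arrays, so a difference of changes could not be measured for them. Dose and tissue cannot be told apart in this term, since islets received 10 nM and hepatocytes 200 nM.

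The genes around the family gave no call with FK866 either. Over the 9 lists, 0 of 107 entries tested in islets and 0 of 111 tested in hepatocytes were called, with list medians between -0.15 and 0.15 in islets and between -0.05 and 0.05 in hepatocytes. The largest differences among hydrolases and readers in hepatocytes were -0.31 (SE 0.18) for Enpp1 and 0.28 (SE 0.09) for Macrod1. Hk1, of glycolysis, gave 0.40 (SE 0.18) there. In islets the base excision genes Nthl1 and Apex1 gave -0.58 (SE 0.43) and 0.58 (SE 0.57), and Aifm1 gave 0.40 (SE 0.22). Nampt gave 0.11 (SE 0.18) in islets and -0.09 (SE 0.12) in hepatocytes. Xrcc1 gave -0.28 (SE 0.30) in islets and -0.08 (SE 0.10) in hepatocytes. The interferon-induced Tyki gave -0.66 (SE 0.51) and Oasl2 -0.64 (SE 0.31) in islets, and Parp16 gave -0.46 (SE 0.23) there.

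On the islet arrays numbered 2, Parp1, Parp2, Parp14 and Sarm1 lay outside the range of the other islet arrays. Of the genes detected on no islet array, Parp3, Parp9 and Parg lay within that range and Tnks did not. Sarm1, close to background, lay at 6.11 and 6.16 in the FK866 and the control group, against 5.61 to 6.03. On the same arrays Parp1 lay at 11.34 and 11.33, against 10.36 to 10.62 on the other 6 islet arrays. Parp14 lay at 9.37 and 9.82, against 8.18 to 8.68, and Parp2 at 10.93 and 10.61, against 10.99 to 11.33. The scanner signals of Parp1 on these arrays, 1529 and 1270, lay within or below the 1309 to 2065 of the other islet arrays, so Parp1 was high there only after normalization. Fibroblast and stellate markers were higher there as well, with a mean log2 intensity of 6.70 and 7.22 and 10 and 9 of 13 detected, against 5.92 to 6.31 and 5 to 7 detected on the other islet arrays. Their summed scanner signal there, 1166 to 1510, lay within the 878 to 1936 of the other islet arrays. Their part in the Parp1, Parp2 and Parp14 values was not tested.

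Over the 16 arrays, deviations from the tissue mean correlated at 0.77 between Parp1 and Parp14, -0.83 between Parp1 and Parp2, and -0.73 between Parp2 and Parp14. In the 8 hepatocyte arrays alone the same values were -0.58, -0.17 and 0.45, and without both islet arrays numbered 2 they were -0.41, -0.46 and 0.25 over 14 arrays. Both relations with Parp14 thus changed sign, and that between Parp1 and Parp2 kept its sign but was weaker. The size of all 3 values over 16 arrays therefore depends on those 2 arrays. By the same measure, the genes whose pattern was most like Parp1 among 7517 others were Tesk1 at 0.97 and Coro1b at 0.96. Those most like Parp2 were Ppm2c and Abhd3, both at 0.94, and those most like Parp14 were Gpt1 and Man2b2, both at 0.96. Without both islet arrays numbered 2 these 6 values were between 0.74 and 0.85. All these genes share the arrays and their scaling.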

How the data were processed

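RNA of 16 samples was read on Illumina bead arrays. The deposited probe intensity is linear, falls below 0 in part, and by its values was not normalized between arrays. A detection p-value per probe was deposited beside it. The authors' deposited table of scores per gene symbol is by its values the log10 signal, floored at 1, centred and scaled per array. What software scanned, annotated and scaled the arrays is not given in the sources used here.

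Probes carry no gene names, so 24081 of 25697 were named by matching log10 signals to scores, which named 16631 of 18111 symbols. Islet scores from Pmpcb to Il22ra2 were moved down by 1 row: 2712 of 2712 checked pairs were then equal. The members and lists were chosen with earlier results of these data known. Named genes were all members and, per list, up to 4 called genes with the largest tissue difference and up to 2 with the largest FK866 difference per tissue, of which some are given here, and always Nampt, Xrcc1 and Nmnat2. Irf1, Lgals3bp, Psmb9, Krt7, Cd68 and Cd14 lie outside that rule and were chosen after their values were seen.

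In R 4.3.3 with limma 3.58.1, neqc was run with background inferred from detection p and an offset of 16, followed by quantile normalization on the log2 scale, over 16 arrays for tissue and interaction and over 8 within a tissue. The brightest probe stood for a gene, tested when detected at p under 0.05 on at least 4 arrays of the fit. lmFit and eBayes with Benjamini-Hochberg adjustment were used, with a threshold of 0.05; the steps were tested on simulated data. Where a gene was detected on 0 arrays of a group, the fold is a bound: the brighter mean against, per array, the higher of the lowest detected value and the gene's own. The number of arrays limits the precision. Same-numbered FK866 and control arrays deviated together (correlations 0.53 to 0.93 in islets and 0.38 to 0.61 in hepatocytes, 4 pairs each); the labels name no shared animal. Across tissues they did not (-0.11 to 0.08). Symbols and promoters are from RefSeq, GRCm38.p6. The array's own build is unknown here.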

Additional observations from a re-analysis of the deposited data

Results flagged for a closer look

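In 3 of the 14 groups of 4 arrays examined, 1 array lay far from the other 3 by Dixon's test, which chance alone does in about 1 in 20 groups. Parp1 was 11.33 on islet control array 2, against 10.46 to 10.56 on the other 3 arrays. Parp14 was 9.37 on islet FK866 array 2, against 8.22 to 8.36 on the other 3. Parp1 was 10.50 on hepatocyte control array 4, against 10.31 to 10.33 on the other 3. Values are normalized log2 intensities.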

How the results depend on the processing

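The tissue comparison called 4 family genes. The count was 2 when genes had to be detected on every array, which left 3 members to test and called 3910 of all genes, against 6647 before. It was 5 with a replicate block over both tissues, with signals floored at 16, with 75th percentile scaling, on moved scores and on the FK866 arrays, each with Tnks added, 5 without a detection filter, with Parp9 added, 3 with control arrays only, and 6 with deposited scores whose islet rows were not moved, an alternative chosen after seeing the data, like the FK866 arrays without islet arrays 2, which gave 4. It was 3 to 5 when 1 array was left out. Of all 10065 genes, 69.2% were called with the block and 63% on the FK866 arrays, against 66% in the main fit. The shares of all genes under the other alternatives are not given here, so these counts are no result about the family. Unmoved rows turned Parp2 to -0.33 and Parp3 to 0.51. The call of Tnks came and went: its adjusted p was 0.0356 with the block, and between 0.00253 and 0.156 over its alternatives. With FK866, 0 family genes were called under every alternative, with the block within tissue as well, and the interaction gave 0 under every alternative. Small FK866 differences changed sign. Parp1 in hepatocytes was 0.0048 on moved scores and 0.0053 as a mean of probes, and -0.066 to 0.043 with 1 array left out; Parp14 there was -0.064 to 0.13. In islets Parp1 was -0.010 with 75th percentile scaling, -0.0028 without both arrays numbered 2, and -0.20 to 0.20 with 1 array left out. Parp2 in islets was -0.025 on scores, -0.11 as a mean of probes, -0.055 without both arrays numbered 2, and -0.11 to 0.11 with 1 left out, and Parp14 was -0.48 to 0.13. The difference of changes was -0.19 to 0.22 for Parp1 and -0.53 to 0.084 for Parp14 with 1 left out. For Parp2 it was -0.018 on scores, -0.072 as a mean of probes, -0.0063 without both arrays numbered 2, and -0.065 to 0.17 with 1 left out. Apart from the mean of probes and the removal of arrays, the cause was not tested. Dim probes limit Parg, Parp9, Sarm1 and Tnks.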
